A study of Homo sapiens with 6 samples.

Results

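The genes of oxidative phosphorylation were followed through a SAM68 overexpression experiment in NCI-H1975 cells, a human lung adenocarcinoma line. Members were the splicing events of genes whose symbol starts with NDUF, UQCR or ATP5, or names a COX4 to COX8 subunit or SDHA, SDHB, SDHC or SDHD, with a mean of at least 10 junction reads over the 6 libraries. This took 469 of 66395 tested events, in 78 of 10147 genes. Another 57 listed events of these symbols had fewer reads, and 6 A3SS events could not be read from the deposited lists. Of the 78 genes, 32 encode subunits of complex I, 7 its assembly factors, 4 complex II, 6 complex III, 10 complex IV (with COX7A2L, which also takes part in supercomplexes) and 17 complex V (with ATP5S, a coupling factor). COX7B2 and the readthrough ATP5MF-PTCD1 were placed in no class.

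The control group held 3 libraries of cells given the empty PCDNA3.1 plasmid, and the SAM68 group 3 libraries of cells given PCDNA3.1-SAM68. Both received 2 µg of plasmid per well with Lipofectamine 2000 for 48 h. The cells carry no deletion or reporter beyond this, the expression was transient, and the RNA is that of the whole well, transfected or not. The methods of the study call the libraries of a group biological replicates without saying how the cultures were kept apart. The quasi-binomial and limma p-values rest on the spread between these libraries, moderated for each event or gene towards that of the others.

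Oxidative phosphorylation takes electrons from NADH at complex I and from succinate at complex II, passes them through complex III to oxygen at complex IV, and uses the proton gradient so built to make ATP at complex V. Its complexes hold core subunits that carry electrons, protons or the catalytic site and many accessory subunits, and complex I needs assembly factors that leave before the enzyme is complete. Tumour cells differ in how far they rely on it or on glycolysis, which ends at pyruvate kinase, PKM. SAM68, the product of KHDRBS1, is an RNA-binding protein that binds UAAA and UUAA sequences and takes part in the choice of exons. Percent spliced in (PSI) is the share of an event's junction reads, corrected for length, that hold the alternative sequence, and differences are given in percentage points as SAM68 minus control. The events are skipped exons (SE), alternative 3ʹ or 5ʹ splice sites (A3SS, A5SS), retained introns (RI) and pairs of mutually exclusive exons (MXE), where PSI is that of the first exon in the direction of transcription.

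The exons below are coding exons of events on which the results turn, chosen to show a short exon that keeps the reading frame (UQCRH) and both exons of 2 pairs (NDUFB5 and NDUFAF2). Exon bases are in capitals and 20 intron bases on each side in lower case, on the strand of the gene, in GRCh38. All 5 exons are preceded by AG and followed by GT, and 2 of the 5 have a length that is a multiple of 3.
UQCRH exon 2 (chr1:46309101-46309127, plus strand): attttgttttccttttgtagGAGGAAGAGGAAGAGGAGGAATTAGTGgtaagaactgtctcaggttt
NDUFB5 exon 3 (chr3:179615983-179616049, plus strand): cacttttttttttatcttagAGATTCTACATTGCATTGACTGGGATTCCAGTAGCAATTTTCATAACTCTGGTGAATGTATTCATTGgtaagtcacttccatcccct
NDUFB5 exon 4 (chr3:179616983-179617044, plus strand): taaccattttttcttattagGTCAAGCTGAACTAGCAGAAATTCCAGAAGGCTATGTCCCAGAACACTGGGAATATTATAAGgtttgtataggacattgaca
NDUFAF2 exon 2 (chr5:61073125-61073214, plus strand): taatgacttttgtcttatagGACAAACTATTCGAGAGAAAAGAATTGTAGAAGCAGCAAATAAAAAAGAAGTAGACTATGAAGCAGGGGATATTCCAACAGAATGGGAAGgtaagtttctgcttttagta
NDUFAF2 exon 3 (chr5:61098992-61099032, plus strand): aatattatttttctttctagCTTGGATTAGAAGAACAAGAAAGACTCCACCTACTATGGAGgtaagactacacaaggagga

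The libraries held 16951876 to 19737729 junction reads in the SE table. Reads of a gene are those of its event with the most reads, and rpm gives them per 1000000 such reads summed over all genes (5449695 to 6337736 per library). Junction reads of KHDRBS1 were 311, 328 and 316 rpm for control and 1230, 1260 and 1276 rpm in SAM68 libraries, a log2 fold change of 1.98 ± 0.047 (SE, limma, adjusted p = 1.16e-21). PKM exon 9, in its pair with exon 10, had a PSI of 55.9% ± 0.317 in control and 0.731% ± 0.0704 in SAM68 libraries (SD, n = 3 each). Both checks separate the groups, and since the order of the lists was read from the study's display of PKM, KHDRBS1 is the independent one. Of 8 epithelial markers, 3 had a tested event, and their sum was 732 to 995 rpm in control and 760 to 770.1 rpm in SAM68 libraries. Nearly all of it came from KRT8 (229 to 520 rpm over the 6 libraries) and KRT18 (471 to 530 rpm). KRT7 had only 1.26 to 4.48 rpm. Of 10 markers of other cell types 1 (CD68) had a tested event, at 92.0 to 104 rpm over the 6 libraries, above KRT7. A gene enters these tables only through an event, so the level of the others was not measured.

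The quasi-binomial test called 0 member events (adjusted p under 0.05 and a difference of at least 10 points), where 18 of all 66395 events (0.0271%) were. At an unadjusted p under 0.05 there were 37 member events (7.89%, 22 with a higher and 15 with a lower PSI in SAM68 libraries), against 8.43% of all events. The groups did not overlap in 30 member events (6.40%), against 6.1% of all. Both shares lay near those of all events. With limma on the logit of PSI the count of calls was again 0, with 16 member events at an unadjusted p under 0.05 (3.41%, against 4.59% of all). The likelihood ratio test on pooled counts, which takes no spread between libraries into account, called 4 member events (0.853%, against 2.04% of all events) and gave 104 an unadjusted p under 0.05 (22.2%, against 23% of all).

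Most of these events had a PSI near 0% or 100%. It was above 95% in both groups in 261 member events and under 5% in both in 116. The remaining 92 (19.6%) were alternative, with a mean PSI of 5% to 95% in at least 1 group, against 37.8% of all tested events. The median absolute difference was 0.232 points over the 469 member events and 1.24 points over all events, and among alternative events alone it was 2.20 and 4.63 points. The member events were also read more deeply, with a median of 642 reads per library against 111 for all events (205 against 59.5 among alternative ones), and the part of depth in the smaller differences was not tested. Of 432 member events with at least 50 reads, 0 differed by 10 points or more and 5 (1.16%) by 5 or more, against 1.86% and 8.44% of the 48164 events of that depth. The 95% interval of the difference lay within 10 points of 0 for 427 of the 469 events. Among the 92 alternative events it did so for 54 (58.7%), all of them among the 67 with at least 50 reads. For the rest the interval reached 10 points or more. At least 1 event was alternative in 41 of the 78 genes. In the other 37 none was, and their 119 events differed by -1.63 to 1.78 points.

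**Figure D1:**
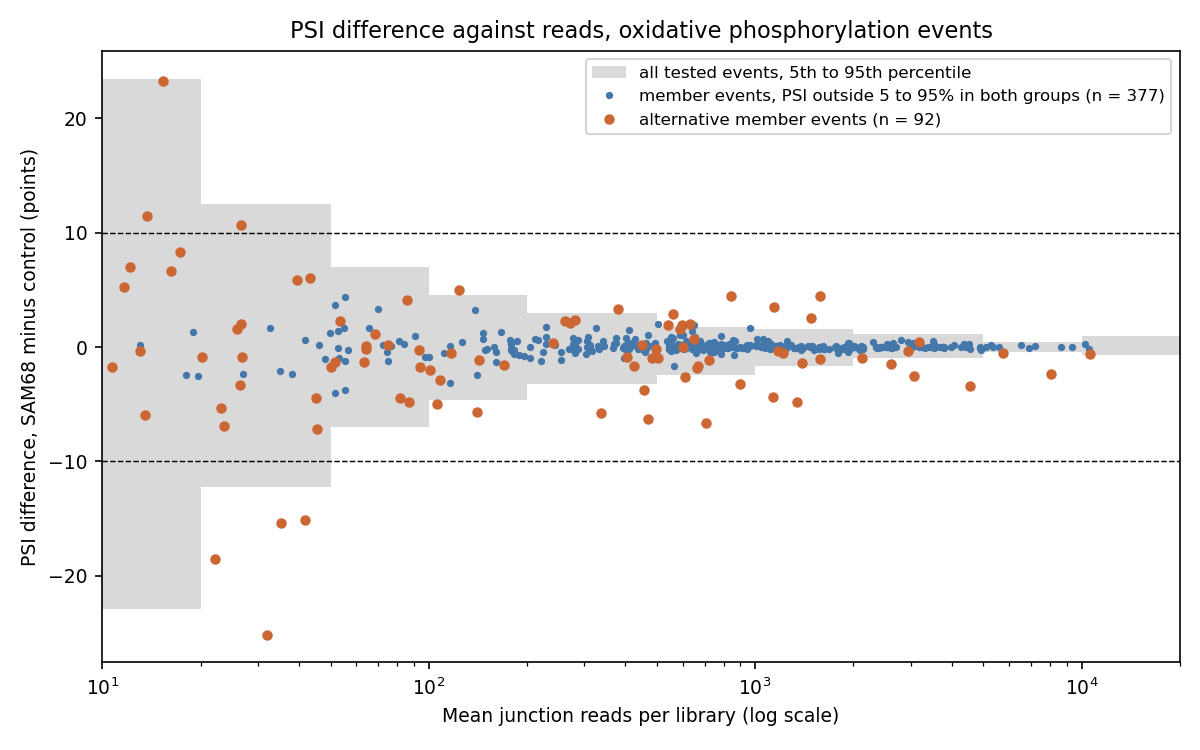
Difference in PSI (SAM68 minus control, points) against mean junction reads per library (log scale) for the 469 oxidative phosphorylation events, of which 92 were alternative. Grey blocks span the 5th to 95th percentile of all tested events in the same range of reads, and dashed lines mark 10 points. Past 50 reads no member reached a dashed line, and the widest differences sat among events with fewer reads.

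Complex I, the NADH dehydrogenase, gave 212 events of subunits in 178 variable regions, 35 of them alternative. NDUFB5, an accessory subunit of the membrane arm, had the largest difference among events with at least 50 reads. In its pair of exons 3 and 4 (591 to 829 reads per library), the PSI of exon 3 was 58.1%, 56.4% and 59.8% in control and 54.1%, 48.8% and 51.6% in SAM68 libraries. Every control library lay above every SAM68 library. The difference was -6.63 points (95% interval -11.1 to -2.10) and did not pass the test (adjusted p = 0.345, exact permutation p = 0.1, the smallest that 3 against 3 libraries allow).

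NDUFV2, an iron-sulfur subunit of the NADH-binding module, showed the opposite direction. For exon 5 (chr18:9122513-9122681) against exon 6 (chr18:9124874-9124983), PSI was 60.9%, 57.7% and 58.5% in control and 61.9%, 62.9% and 65.8% in SAM68 libraries, without overlap. That is 4.49 points (95% interval 1.41 to 7.58, adjusted p = 0.298). NDUFB9, another accessory subunit of the membrane arm, had 65.1%, 64.5% and 66.7% of its exon 2 and 3 reads on exon 2 in control and 62.2%, 65.2% and 58.7% in SAM68 libraries. Here the groups overlapped through 1 SAM68 library at 65.2% (-3.37 points, 95% interval -5.65 to -1.09, adjusted p = 0.310). Without the SAM68 library at 58.7% the difference was -1.69 points.

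NDUFA10, an accessory subunit, had the next largest difference after NDUFB5. PSI of its exon 5, paired with exon 7, was 65.7%, 76.0% and 72.5% in control and 66.3%, 66.1% and 62.8% in SAM68 libraries, -6.32 points (95% interval -12.2 to -0.456, adjusted p = 0.554). The lowest control library lay among the SAM68 libraries, and without the control library at 76.0% the difference was -4.04 points. For NDUFS1, the large iron-sulfur core subunit, PSI of exon 3, paired with exon 4, was 55.2%, 46.6% and 50.6% against 45.6%, 47.0% and 42.4%, with overlap (-5.81 points, 95% interval -12.4 to 0.824, adjusted p = 0.637). Without the control library at 55.2% it was -3.59 points. NDUFA8 exon 2 and the NDUFS8 pair of exons 3 and 5 differed by less than 1 point. NDUFA8 exon 2 was included at 91.6% ± 1.43 in control and 91.2% ± 0.437 in SAM68 libraries (SD, n = 3 each), with an interval of -2.67 to 1.91 points. NDUFS8 exon 3 stood at 7.28% ± 0.746 and 6.73% ± 1.08, with an interval of -2.59 to 1.49 points. With each library left out in turn its difference of -0.547 points ran from -1.16 (without SAM68 list position 3) to -0.117 points (without SAM68 position 2).

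Most of these pairs join exons that were both almost always included. Of the 30 alternative MXE events among the members, 25 join 2 exons that both sit in the canonical transcript. A transcript with both exons carries a 5ʹ junction that is counted for the first exon and a 3ʹ junction that is counted for the second. In 20 of the 25, each exon also had a skipped-exon event of its own, and in 19 of these each was included above 90% there. SDHB exons 2 and 3, for example, were included at 99.98% and 99.94%, NDUFV2 exons 5 and 6 at 99.98% and 99.96%, and NDUFB5 exons 3 and 4 at 99.97% and 99.79%, as means of both groups in the skipped-exon event with the most reads. The PSI of such a pair therefore weighs the reads at its 5ʹ junction against those at its 3ʹ junction. Over all 30 alternative pairs, of this kind or not, PSI was lower in SAM68 libraries in 22 (73.3%), against 54.4% of all 6893 alternative MXE events. Pairs of 1 gene can share exons and reads.

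The skipped-exon events of NDUFB5, the gene with the most member events (23), differed from its pair. Besides the nearly complete inclusion above, exon 3 had a second skipped-exon event with other flanking exons and 213 to 316 reads. There PSI was 58.3%, 55.4% and 62.7% in control and 63.2%, 57.8% and 61.8% in SAM68 libraries, 2.15 points (95% interval -4.40 to 8.69). The groups overlapped, and the sign was opposite to that of the pair. These events and those in the next paragraphs that are said to be chosen later were picked after their values were seen.

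Assembly factors of complex I gave 43 events, 19 of them alternative, the highest share of any class. NDUFAF2, a chaperone of late assembly steps, had 2 of them among the best read. Its exon 3, of 41 nt and so shifting the frame when skipped, was included at 92.1%, 94.1% and 90.3% in control and 96.3%, 96.9% and 93.4% in SAM68 libraries. Only the lowest SAM68 library lay within the control range (3.33 points, 95% interval 0.307 to 6.36, adjusted p = 0.557). In the pair of exons 2 and 3 (129 to 178 reads), the share of exon 2 was 28.0%, 30.2% and 26.3% against 18.3%, 24.5% and 24.7%. The groups did not overlap (-5.66 points, 95% interval -13.8 to 2.43, adjusted p = 0.739), and without the SAM68 library at 18.3% the difference was -3.56 points. Both exons were mostly included as skipped exons, at 98.97% and 93.85%, and the pair shares junction reads with the exon 3 event.

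Complex II, succinate dehydrogenase, gave 32 events with 6 alternative ones. SDHB, its iron-sulfur subunit, had the smallest control SD of the named pairs (0.380 points). The PSI of exon 2, paired with exon 3, was 59.6%, 59.9% and 60.3% in control and 54.7%, 58.2% and 52.5% in SAM68 libraries, all below every control library. The difference was -4.81 points (95% interval -8.17 to -1.45, adjusted p = 0.301, exact permutation p = 0.1). Both SDHB exons were almost always included, as given above. SDHC, a membrane anchor, skips exon 5 in a minority of transcripts. Its 164-nt exon was included at 87.1%, 89.6% and 89.7% in control and 85.2%, 87.2% and 84.3% in SAM68 libraries, and 1 control library lay within the SAM68 range (-3.25 points, 95% interval -6.28 to -0.219, adjusted p = 0.565). With PSI from raw counts, not corrected for length, the difference was -1.86 points.

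Complex III, the cytochrome bc1 complex, gave 26 events, 5 of them alternative and all 5 in UQCRH, the hinge protein that helps cytochrome c to dock. Its 27-nt exon 2, printed above, was supported by 2452, 2835 and 2635 inclusion reads and 318, 310 and 334 skipping reads in control libraries. In SAM68 libraries there were 3011, 2561 and 2678 inclusion and 418, 396 and 427 skipping reads. PSI was 86.5%, 88.4% and 86.8% in control and 85.7%, 84.3% and 83.9% in SAM68 libraries. The SAM68 libraries were all below the control libraries by a small margin, -2.57 points in the mean (95% interval -4.04 to -1.11). The unadjusted p of 0.00135 was among the lowest of the member events and the adjusted p was 0.291. The exon keeps the reading frame. A 148-nt exon of UQCRH (chr1:46309897-46310044), absent from the canonical transcript, was included at 8.68% ± 0.190 in control and 9.17% ± 1.30 in SAM68 libraries (SD, n = 3 each), with an interval of -0.509 to 1.48 points. UQCRH has an intronless copy elsewhere in the genome, as several of these genes do, and reads that fit both could be placed at either.

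Complex IV, cytochrome c oxidase, gave 52 events with 7 alternative ones, and the smallest median absolute difference of the 6 classes (0.111 points). COX4I1, a subunit at which the enzyme is regulated, had 7490 to 8680 reads in its pair of exons 3 and 4. PSI was 61.2%, 61.3% and 63.4% in control and 58.0%, 62.0% and 58.9% in SAM68 libraries, with 1 SAM68 library inside the control range (-2.34 points, 95% interval -4.05 to -0.633, adjusted p = 0.324). Leaving out each library in turn gave -3.55 points without the SAM68 library at 62.0% and -1.52 points without the one at 58.0%. Its exons 3 and 4 were each included at 99.99% and 99.97% as skipped exons. COX6C, an accessory subunit, had 14.6% ± 2.07 and 17.1% ± 3.38 of the reads of its exon 2 and 3 pair on exon 2 (SD, n = 3 each), with an interval of -0.315 to 5.36 points. The difference was 2.52 points, and 0.573 points without SAM68 list position 3.

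Complex V, the ATP synthase, gave 97 events, 20 of them alternative. Its 2 best-read alternative events differed by under 1 point. For ATP5F1B, the catalytic beta subunit, 9471 to 11702 reads per library put exon 2 of the exon 2 and 4 pair at 65.9%, 67.6% and 67.6% in control and 66.2%, 66.7% and 66.5% in SAM68 libraries. The SAM68 libraries lay inside the control range, and the interval of the difference was -1.72 to 0.592 points. That difference, -0.564 points, was -1.14 without control list position 1 and -0.262 without control position 3. ATP5MF, subunit f of the membrane part, included its 117-nt exon 3 at 92.1%, 89.6% and 91.2% in control and 90.9%, 89.0% and 91.5% in SAM68 libraries. These overlapped too, with an interval of -1.82 to 0.811 points around -0.504, and the difference ran from -1.18 (without control position 2) to 0.218 points (without SAM68 position 2) when 1 library was left out. ATP5PO, the stalk subunit that joins both parts of the enzyme, had 67.1% ± 1.80 and 65.7% ± 1.44 on exon 4 of its exon 4 and 5 pair (SD, n = 3 each, interval -3.83 to 0.941 points). The difference of -1.44 points was -0.412 without control list position 1 and -0.643 without SAM68 list position 2.

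The small membrane subunits ATP5MPL (ATP5MJ in GENCODE) and ATP5MD (ATP5MK) differed most within complex V at 50 reads or more. A 155-nt exon of ATP5MPL (chr14:103914479-103914633), absent from the canonical transcript, had a PSI of 93.7%, 91.8% and 90.9% in control and 96.6%, 94.8% and 100% in SAM68 libraries. Every SAM68 library lay above every control library, at 93 to 172 reads each (5.01 points, 95% interval -0.829 to 10.9, adjusted p = 0.565), and with PSI from raw counts the difference was 2.64 points. That PSI belongs to 1 event with its own flanking exons, not to the exon in all transcripts. An ATP5MPL exon outside the canonical transcript, paired elsewhere with exon 3, was included at 3.20% over both groups in its best-read skipped-exon event (3045 reads). ATP5MD exon 2 (chr10:103395746-103396032), which is untranslated, had 2 events with different flanking exons. In the one with 74 to 133 reads PSI was 92.2%, 89.7% and 97.0% against 83.6%, 87.2% and 93.4%, with overlap (-4.94 points, 95% interval -12.9 to 3.02). It was -2.75 points from raw counts, and -7.61 to -2.70 points when each library was left out, with SAM68 list positions 3 and 1 at the ends and -2.93 points without control position 3. The other, with 735 to 923 reads and chosen later for the lowest p of any member event (0.00109, adjusted p = 0.272), had 13.9%, 14.5% and 18.3% in control and 19.7%, 19.9% and 20.5% in SAM68 libraries. Here the groups did not overlap, and the difference of 4.50 points (95% interval 2.01 to 6.98) had the opposite sign.

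**Figure D2:**
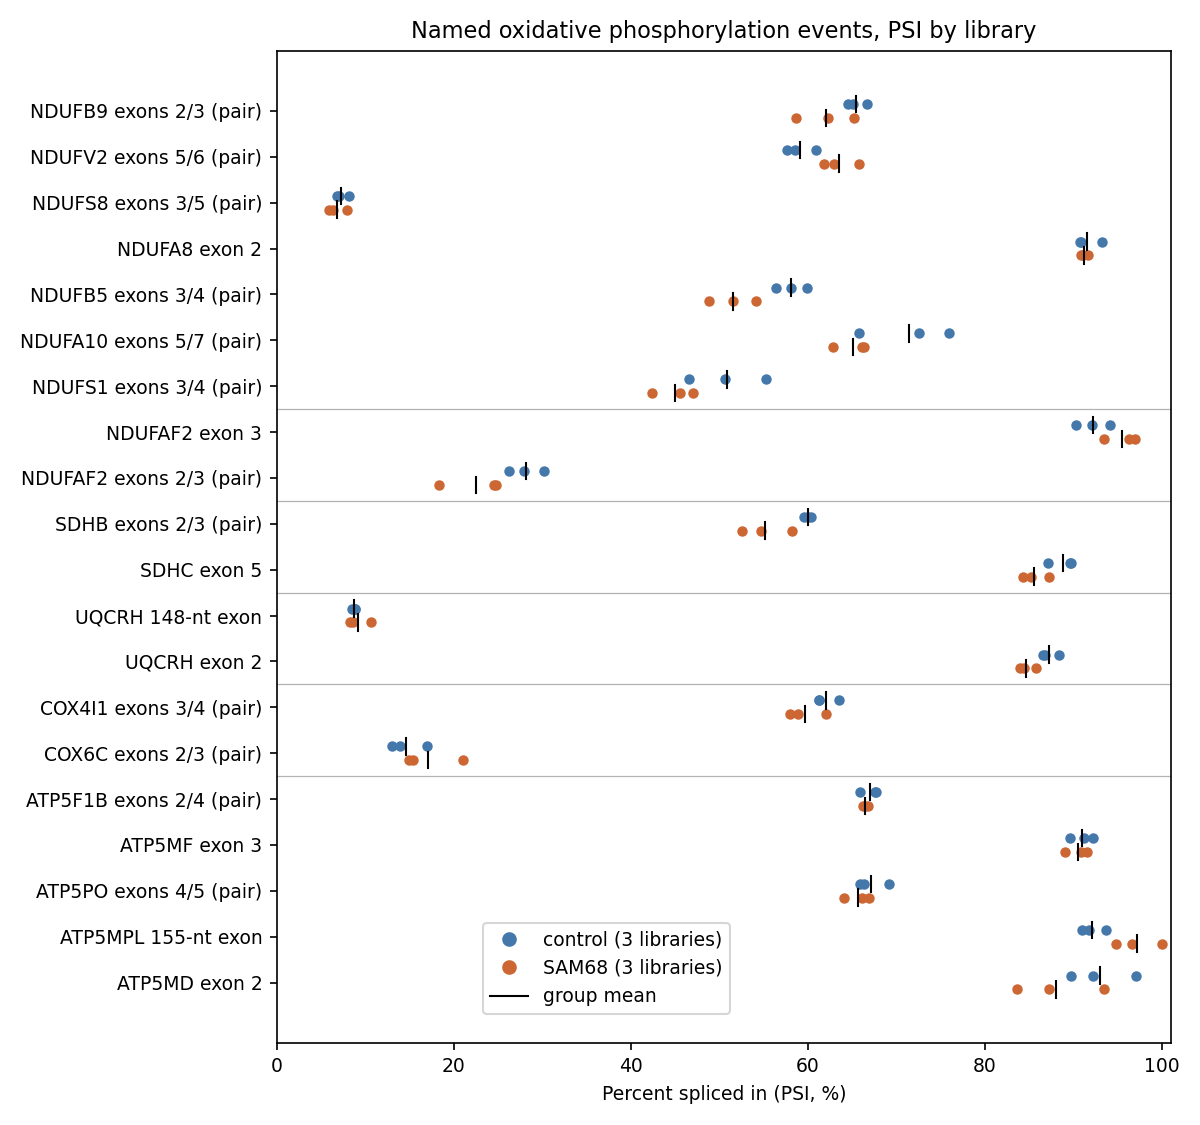
PSI (%) of the 20 named events in each of the 3 control and 3 SAM68 libraries, with the group means as vertical lines. Grey lines divide complex I subunits, complex I assembly factors, complex II, III, IV and V, and a pair is named by both exons and shows the share of the exon nearer the 5ʹ end. The widest gaps, in NDUFB5, NDUFA10, NDUFS1 and NDUFAF2, differed by -5.66 to -6.63 points, and most events overlapped between groups.

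The 4 events called by the likelihood ratio test alone rested on few reads. They were chosen later, for that call. A 98-nt exon of NDUFAF5, an assembly factor that modifies NDUFS7, had 23, 18 and 6 inclusion reads beside 31, 47 and 23 skipping reads in control libraries, and 3, 2 and 4 beside 31, 31 and 32 in SAM68 libraries. Its PSI of 29.8%, 17.99% and 12.998% against 5.25%, 3.56% and 6.68% did not overlap (-15.1 points, 95% interval -23.9 to -6.30, quasi-binomial adjusted p = 0.291). A 62-nt exon of ATP5MG, subunit g of the ATP synthase, in transcripts annotated as noncoding, stood at 40.5%, 20.05% and 16.5% against 11.3%, 11.01% and 8.64% with 19 to 52 reads. The groups were again apart, and the control libraries spread over a wider range than the gap (-15.4 points, 95% interval -27.2 to -3.49, adjusted p = 0.544).

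In the other two, 1 control library stood apart from its group. An 84-nt stretch at a 5ʹ splice site of NDUFS8, an iron-sulfur subunit, had PSI of 57.9%, 53.7% and 4.18% in control and 11.9%, 28.3% and 0% in SAM68 libraries, so that the groups overlapped (-25.2 points, 95% interval -49.5 to -0.850, adjusted p = 0.655). The 0% came from 0 inclusion reads beside 19 skipping reads, and up to 3 inclusion reads would be allowed by a count of 0. NDUFAF6 exon 8 had 90.1%, 86.3% and 47.3% against 93.6%, 100% and 100%, at 8 to 22 reads (23.3 points, 95% interval 0.633 to 46.0, adjusted p = 0.519). These limits cover counting error only.

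Of the 256 skipped exons of these genes, 33 were alternative in their best-read event, by which each exon was judged here. The ATP5MG exon above is not among them, since it was included at 0.50% and 0.32% in its best-read event. By annotation 20 of the 33 were coding, 8 partly coding and 5 untranslated, and 17 belonged to the canonical transcript. Among the 20 coding ones 9 (45.0%) had a length that is a multiple of 3, and among 139 coding exons that were not alternative 59 (42.4%) did. Of all 33, coding or not, 10 (30.3%) did, against 43.4% of all 10815 alternative exons. Another 14 exons were alternative only in an event with fewer reads, and with these, a count added later, 9 of 27 coding ones (33.3%) were a multiple of 3. No A3SS member had sites 3 nt apart. The sequences TAAA and TTAA, searched on the strand of the gene in the exon and 100 nt on each side, were counted as a description. TAAA stood beside or in 72.7% of the 256 exons and TTAA in 72.3%, against 66.2% and 66.5% of all 38792 tested exons. Windows had a median of 317 nt in both sets. In the 33 alternative exons the shares were 90.9% and 84.8%, against 66.2% and 66.7% of all 10815 alternative exons. In the 47 exons alternative in any event they were 93.6% and 85.1%, against 66.3% and 66.9% of all 11943 such exons. Window lengths of these alternative sets and base composition were not compared, exons of 1 gene can lie close together, and no difference in shares was tested. In the printed runs themselves, TAAA or TTAA occurred in 1 of 5, that of NDUFAF2 exon 2, and neither occurred in those of UQCRH or NDUFB5.

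Junction reads per gene, taken from the event with the most reads of each gene, differed little. Of the 78 genes 0 were called at an adjusted p under 0.05 and a log2 fold change of at least 1 with limma, where 5 of all 10147 genes (0.0493%) were, and 0 passed the adjusted p alone, against 0.414% of all. At an unadjusted p under 0.05 there were 18 (23.1%, 10 lower and 8 higher), against 12.1% of all genes. The groups did not overlap in 21 genes, 9 lower (11.5%, against 10.8% of all) and 12 higher (15.4%, against 6.04%), together 26.9% against 16.8%. The member genes had a median of 1493 reads per library against 150 for all genes, and the part of depth in these shares was not tested. The median log2 fold change was -0.01 for members and -0.03 for all genes, and the median absolute value 0.08 and 0.13. Every member lay between -0.36 and 0.30, and 72 of 78 had a 95% interval within -0.5 to 0.5. Fewer cells with a transcript and less of it per cell cannot be told apart in RNA of whole wells.

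**Figure D3:**
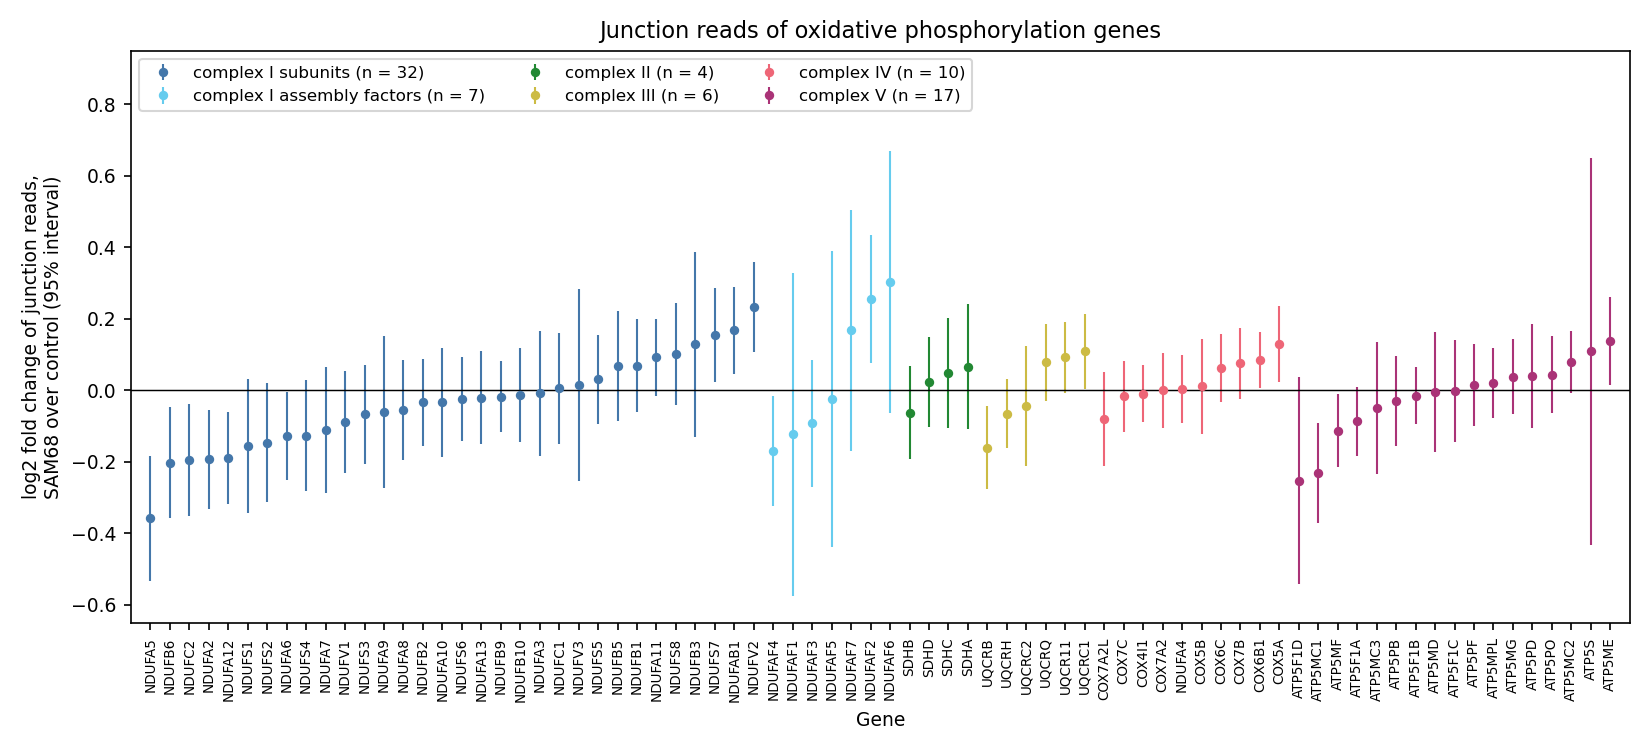
Log2 fold change of junction reads (SAM68 over control, from log2 of rpm plus 0.5) for the 76 classed genes, in order within each class, with 95% intervals from limma. Points lay between -0.36 and 0.30. In complex I subunits 21 of 32 were below 0, where the median of all genes was below 0 too (-0.03).

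By class, genes with a log2 fold change below and above 0 numbered 21 and 11 for complex I subunits, 4 and 3 for assembly factors, 1 and 3 for complex II, 3 and 3 for complex III, 3 and 7 for complex IV, and 9 and 8 for complex V. The median was -0.03 for complex I subunits. It was -0.02 for assembly factors, 0.04 for complex II, 0.02 for complex III, 0.01 for complex IV and -0.002 for complex V, next to -0.03 for all genes. The 21 genes without overlap, where 10.8% of all genes were lower and 6.04% higher, were 6 lower and 4 higher of 32 complex I subunits, 1 lower and 1 higher of 7 assembly factors, 0 of 4 in complex II, 3 higher of 6 in complex III, 2 higher of 10 in complex IV, 2 lower and 1 higher of 17 in complex V, and 1 higher of the 2 without a class. The counts below and above 0 depend on the scaling, since median-of-ratios scaling moved the median of all genes from -0.03 to -0.004. The share of all genes below 0 was not counted. No class was tested as a set.

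NDUFA5, an accessory subunit of the matrix arm, came closest to the threshold. It had 107, 102 and 103 rpm in control and 79.2, 77.4 and 86.9 rpm in SAM68 libraries, with every SAM68 library lower, a log2 fold change of -0.36 ± 0.085 (SE, limma, adjusted p = 0.0539). ATP5MC1, a source of the proton-conducting ring subunit c, had 276, 259 and 272 rpm against 225, 255 and 209 rpm, also without overlap (-0.23 ± 0.068, limma, adjusted p = 0.129). For NDUFB6, an accessory membrane subunit, the values were 139, 136 and 129 rpm and 119.6, 118 and 113 rpm, again apart (-0.20 ± 0.075, limma, adjusted p = 0.246). NDUFC2, an accessory subunit, and ATP5F1D, the delta subunit of the central stalk (read at a retained intron), were lower in the mean with overlapping groups. NDUFC2 was at 181 ± 13.6 and 159 ± 14.4 rpm and ATP5F1D at 36.1 ± 4.13 and 30.4 ± 4.82 rpm (SD, n = 3 each). The log2 fold change of ATP5F1D, -0.25, was -0.13 without SAM68 list position 1.

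On the other side, NDUFV2 had 308, 284 and 305 rpm in control and 355, 326 and 377 rpm in SAM68 libraries, each of them higher (log2 fold change 0.23 ± 0.061, SE, limma, adjusted p = 0.0807). With reads summed over all events of the gene it was 0.12 (limma, adjusted p = 0.289). NDUFAF2 stood at 77.9, 74.5 and 78.1 rpm against 86.6, 93.6 and 95.2 rpm (0.25 ± 0.087, limma, adjusted p = 0.206). NDUFAB1, the mitochondrial acyl carrier protein, had 275, 306 and 286 rpm against 324, 331 and 319 rpm (0.17 ± 0.059, limma, adjusted p = 0.215). In these 3 genes the groups did not overlap. The assembly factors NDUFAF6 and NDUFAF7 overlapped, at 17.7 ± 3.92 and 21.8 ± 2.51 rpm for NDUFAF6, and 18.7 ± 1.20 and 21.1 ± 1.95 rpm for NDUFAF7 (SD, n = 3 each). The log2 fold change of NDUFAF6, 0.30, was 0.18 with summed events, 0.20 without control list position 2 and 0.47 without control position 3. That of NDUFAF7, 0.17, was 0.095 without SAM68 position 2.

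**Figure D4:**
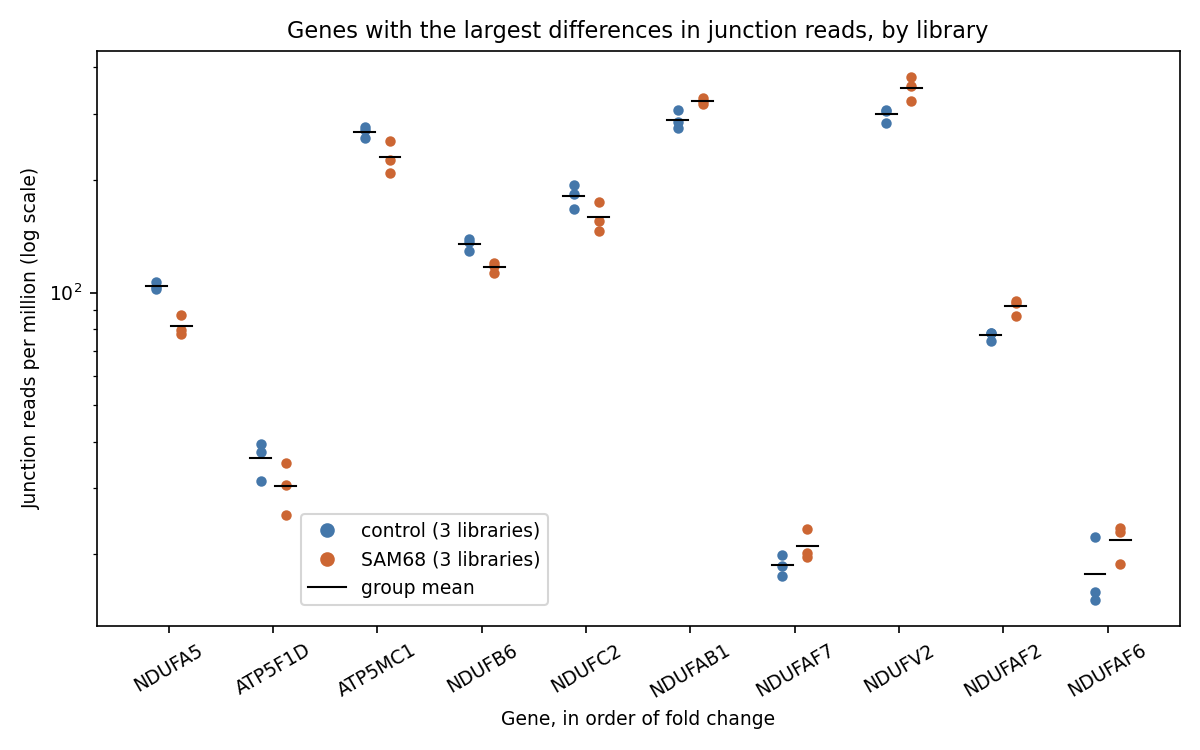
Junction reads in rpm (log scale) of the 5 member genes with the lowest and the 5 with the highest log2 fold change, in 3 control and 3 SAM68 libraries, with group means as bars. NDUFA5, ATP5MC1, NDUFB6, NDUFAB1, NDUFV2 and NDUFAF2 were separated by group, and the others overlapped.

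Of 49 further genes of the pathway (cytochrome c, other assembly factors and transcription factors of mitochondrial biogenesis), 37 had enough reads. With limma 0 were called and 0 passed the adjusted p, 4 had an unadjusted p under 0.05 (10.8%, against 12.1% of all genes), and 22 had a log2 fold change above 0 and 15 below (median 0.04). The lowest p belonged to SDHAF2, which helps SDHA to take up its flavin, at 36.5 rpm in control and 49.4 rpm in SAM68 libraries (log2 fold change 0.43, limma, adjusted p = 0.112). None of their 234 events was called in the quasi-binomial test, and 25 had an unadjusted p under 0.05 (10.7%, against 8.43% of all events).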

How the data were processed

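RNA of 6 libraries, 3 control and 3 SAM68, was sequenced by the authors as paired-end reads, passed through fastp (0.20.0 per the labels), aligned to GRCh38 with HISAT2 (2.1.0 per the labels) and counted with rMATS, whose version is not given in the sources used here. The authors deposited 1 table for each of 5 types of event with inclusion and skipping junction counts and levels as lists of 3 values per group. They also hold the authors' p-values, FDR and differences of levels, which were not used. The lists name no group: control was taken as the first and SAM68 as the second from the study's own display of PKM. List positions carry no replicate number. Of 78336 listed events 275 in the A3SS table had regrouped digits, of which 162 were recovered and 113 left out. No column of values per library was left unused.

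PSI was computed from the counts and effective lengths. All events averaging 10 or more reads entered a quasi-binomial model with dispersion moderated within each type (squeezeVar of limma 3.58.1, R 4.3.3), floor 1, and Benjamini-Hochberg adjustment within type. Intervals of the difference use the same dispersion. Each gene was represented by its best-read event, its junction reads were scaled to 1000000 over all genes, and log2(rpm + 0.5) was tested with limma (eBayes with trend), so that fold changes of low genes are understated. Exact permutation tests were two-sided. All 78 gene identifiers were found in GENCODE 44. Some exon sequences are not reported here. Both fits were tested on simulated data. The planted changes were larger than the differences of the named member events and genes, so the simulation does not show how well small differences are found.

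Members and lists were chosen with earlier results of these data known. Named events were, in each class, the 2 to 4 alternative events with the most reads, the 6 largest differences at 50 reads or more, and those without overlap at 5 points or more. Named genes were the 5 highest and 5 lowest fold changes. Alternatives were other tests and dispersions, read minimums, PSI limits, raw PSI, summed events, scalings, pseudocounts and each library left out.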

Additional observations from a re-analysis of the deposited data

How the results depend on the processing

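No paired analysis was possible because the deposited lists carry no replicate numbers. The count of 0 called events held with unmoderated dispersions, limma on the logit of PSI, adjustment over all types, a limit of 5 points or none, raw counts, other read minimums, summed events and each library left out (0 to 0), and also with 1 dispersion shared per type, an alternative chosen after seeing the data. It became 4 with the likelihood ratio test, which was run on pooled counts and whose construction leaves out the spread between libraries. The count of 0 called genes held under all alternatives, with 0 to 0 when a library was left out. The median-of-ratios scaling moved the median log2 fold change of all genes from -0.03 to -0.004 and that of members from -0.01 to 0.02, and the members' median was also above 0 with summed events (0.002), without control list position 3 (0.006) and without SAM68 position 3 (0.02), so its sign depends on these choices. The adjusted p alone, without the limits on size, fell under 0.05 for NDUFA5 with a pseudocount of 5 (limma, 0.0464) and without SAM68 list position 3 (0.0253), for NDUFV2 (0.0188) and ATP5MC1 (0.0207) without SAM68 position 2, for the COX4I1 and NDUFB9 pairs with the shared dispersion and without SAM68 position 2, and for 34 member events with the likelihood ratio test. Without a library the log2 fold change of KHDRBS1 was 1.96 to 2.00 and the difference of PKM exon 9 -55.3 to -55.0 points. Of 430 values of the named events and genes under alternatives 426 kept their direction and side of the threshold. That count says little about robustness. Other tests, dispersions, adjustments, limits and read minimums left the difference of a named event as it was. No named member event reached 10 points, and no named member gene reached a log2 fold change of 1. The 4 that changed sign were small: NDUFA8 exon 2 gave 0.451 points when control list position 3 was omitted (range over omitted libraries -0.821 to 0.451), the 148-nt exon of UQCRH -0.254 points when SAM68 position 1 was omitted (-0.254 to 0.955), and ATP5MF exon 3 gave 0.0743 and 0.218 points when control position 1 or SAM68 position 2 was omitted (-1.18 to 0.218). Depth limits events with fewer than 50 reads most, since the 5th to 95th percentile of all events there reached past 10 points.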
